A study of Homo sapiens with 8 samples.

Results

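Histone acetyltransferases are the enzymes that place acetyl groups on histone lysines, and the BET proteins are readers that bind the acetylated lysines. The genes described here were defined by symbol and chosen with earlier results of these data known. These are EP300, CREBBP, KAT2A, KAT2B, KAT5, KAT6A, KAT7, HAT1 and BRD3. They were 9 of the 18143 genes that could be placed in the expression table and 9 of the 10710 that passed the filter on low values, so every member was tested. RNA sequencing was done on 8 libraries of human B cell lymphoma lines, 2 in each of 4 groups. Raji is a Burkitt's lymphoma line that is sensitive to rituximab, the antibody against CD20, and Raji-4RH is its rituximab-resistant derivative. Each line received DMSO, the solvent, or 3 µM chidamide, an inhibitor mainly of class I histone deacetylases, for 24 h, and the cells were collected by flow sorting after 2 to 3 passages. The groups are called Raji DMSO, Raji chidamide, Raji-4RH DMSO and Raji-4RH chidamide. Each line is represented by a single derivation, so a difference between Raji-4RH and Raji is a difference between these 2 lines and not between resistant and sensitive lymphoma in general.

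Acetylation loosens the contact between histones and DNA and marks active promoters and enhancers. Acetyltransferases add the mark, deacetylases such as the targets of chidamide remove it, and readers with a bromodomain recruit the transcription machinery to it. EP300 (p300) and CREBBP (CBP) are close relatives that acetylate H3K27 at enhancers, and both are recurrently mutated in B cell lymphoma. KAT2A (GCN5) and KAT2B (PCAF) are alternative catalytic subunits of the SAGA and ATAC complexes, and KAT5 (TIP60) is the catalytic subunit of the NuA4/TIP60 complex. KAT6A (MOZ) and KAT7 (HBO1) share scaffold subunits. HAT1 acetylates newly made histone H4 before it is placed on replicated DNA, and BRD3 is a BET reader.

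The sequences just before the start of 3 members are shown because HAT1 had the largest fall under chidamide in Raji-4RH, KAT2A the largest fall in Raji, and BRD3 the largest rise. They are the 250 bases before the RefSeq start on GRCh38.p14, written 5′ to 3′ on the strand of the gene. Capitals mark every match, on either strand, to the GC box GGGCGG, the CCAAT box, the ETS core CCGGAA, the NRF1 core GCGCATGC and the E2F-type motifs TTTCCCGC and TTTGGCGC. The HAT1 sequence is chr2:171922211-171922460, plus strand.
HAT1: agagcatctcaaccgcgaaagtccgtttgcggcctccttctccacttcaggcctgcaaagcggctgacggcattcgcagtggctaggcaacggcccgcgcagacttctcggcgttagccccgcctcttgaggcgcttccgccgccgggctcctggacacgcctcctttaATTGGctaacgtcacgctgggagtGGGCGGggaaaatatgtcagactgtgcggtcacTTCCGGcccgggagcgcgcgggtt
The KAT2A sequence is chr17:42121368-42121617, minus strand.
KAT2A: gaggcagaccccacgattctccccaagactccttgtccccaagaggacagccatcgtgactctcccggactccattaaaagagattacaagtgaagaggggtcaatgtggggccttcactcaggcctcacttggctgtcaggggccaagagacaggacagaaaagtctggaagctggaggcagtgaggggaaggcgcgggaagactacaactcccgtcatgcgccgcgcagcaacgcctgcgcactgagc
The BRD3 sequence is chr9:134068027-134068276, minus strand.
BRD3: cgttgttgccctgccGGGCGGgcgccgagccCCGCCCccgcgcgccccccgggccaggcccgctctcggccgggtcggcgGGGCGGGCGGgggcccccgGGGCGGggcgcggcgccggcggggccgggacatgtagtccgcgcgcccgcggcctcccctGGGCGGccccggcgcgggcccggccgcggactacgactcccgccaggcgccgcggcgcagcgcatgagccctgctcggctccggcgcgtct
HAT1 held 1 GC box, 1 CCAAT box and 1 ETS core in this window, KAT2A held none of the motifs, and BRD3 held 6 GC boxes. BRD3 also held 48 CpG dinucleotides, more than 99.7% of the 35116 promoter windows in the table, where the median was 11. The ETS core was found in the windows of 3 members, HAT1, KAT5 and KAT7, and in 14.5% of all windows. The GC box occurred in 42.6% of all windows and the CCAAT box in 32.0%. The NRF1 core and the E2F-type motifs were in no window of the 8 members matched (all but KAT6A), against 2.63%, 1.39% and 0.550% of all windows. A match is a stretch of letters and was not tested as a binding site.

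The libraries held between 13991697 and 21193441 reads counted in genes, lowest in the first Raji-4RH chidamide library. The levels are FPKM, fragments scaled to gene length and to the reads of the library, so that genes of different length can be compared. Past its first block of rows the table's values lie below their labels, by 1 row for KAT7, 4 rows for BRD3 and 5 rows for KAT5. They were moved back, and the other members needed no move. After this placement 46 of 51 ribosomal protein genes in the moved rows reached 50 FPKM, against 4 as deposited. All 8 B cell markers of a fixed list were above 1 FPKM in every library. Their summed level was 1151 to 1191 FPKM in Raji DMSO, 1018 to 1034 in Raji chidamide, 773 to 814 in Raji-4RH DMSO and 653 to 682 in Raji-4RH chidamide. The markers did not move as one. CD79A, a chain of the B cell receptor, went from 575 and 537 FPKM in Raji DMSO to 292 and 288 in Raji chidamide, while MS4A1, the gene of CD20, went from 53.8 and 58.7 to 129 and 118. The summed level of 5 T cell markers moved with the groups too, from 0.0891 to 0.0933 FPKM in Raji DMSO and 1.16 to 1.27 in Raji chidamide to 4.75 to 5.60 in Raji-4RH DMSO and 11.4 to 13.5 in Raji-4RH chidamide. That of 5 myeloid markers was 1.04 FPKM in both Raji DMSO libraries and 9.71 to 9.74 in Raji chidamide, and 0.917 to 0.991 in Raji-4RH DMSO and 9.89 to 10.9 in Raji-4RH chidamide. That of 5 epithelial and stromal markers was 0.493 to 0.516 FPKM in Raji DMSO, 2.14 to 2.37 in Raji chidamide, 0.0703 to 0.0852 in Raji-4RH DMSO and 0.849 to 0.970 in Raji-4RH chidamide. No marker of these 3 lists was above 1 FPKM in every library. These 3 lists did not move as one either. In Raji the myeloid CSF1R went from 0.0786 and 0.0578 FPKM with DMSO to 4.63 and 5.06 with chidamide. ITGAM went from 0.0626 and 0.0613 to 3.96 and 3.58 there, but LYZ only from 0.832 and 0.844 to 0.990 and 0.953. CD14 reached 0.129 and 0.127 FPKM, and MPO overlapped between the Raji groups. All 5 myeloid markers were higher with chidamide in Raji-4RH. In Raji-4RH DMSO CD4 held 4.03 and 4.65 FPKM of the T cell sum, and CD3D was at 0. CD4, CD3D, CD3E and CD3G were higher with chidamide in both lines. CD8A was at 0 in every Raji library and overlapped between the Raji-4RH groups. In Raji COL1A1 went from 0.191 and 0.137 FPKM with DMSO to 2.13 and 2.30 with chidamide. There COL1A2 rose from 0 to 0.0087 and 0.0043 FPKM, while KRT8, KRT18 and EPCAM fell. In Raji-4RH all 5 epithelial and stromal markers were higher with chidamide. In bulk RNA, fewer cells of a kind and less RNA per cell cannot be told apart. The part of these shifts in the results below was not tested.

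All 9 members were expressed in all 4 groups, with between 286 and 5390 reads in a library. In Raji DMSO the order by mean level was KAT2A at 42.4 FPKM, EP300 at 16.6, HAT1 at 13.4, CREBBP at 11.3, KAT5 at 7.74, KAT7 at 4.69, KAT2B at 4.58, KAT6A at 3.70 and BRD3 at 3.30. Each neighbouring pair in that order was separate in its libraries except KAT7 and KAT2B, which overlapped. KAT2A was the highest member in every group and was 9.26 times its relative KAT2B in Raji DMSO. In Raji-4RH DMSO HAT1 stood second at 23.2 FPKM, KAT6A had moved up to 10.6, and CREBBP, KAT5 and KAT6A overlapped as neighbours in the order. After chidamide KAT7 was the lowest member in Raji at 2.98 FPKM and BRD3 the lowest in Raji-4RH at 3.05. The FPKM of KAT6A rests on a gene length of 11852 bases in the table, where the joined exons of GENCODE 29 give 24175. Its place among the genes thus depends on the annotation. The length itself cancels in the ratio of its FPKM between groups, but not in the log2(FPKM + 1) differences given below. Whether reads in the other exons would change the ratio was not tested.

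**Figure D1:**
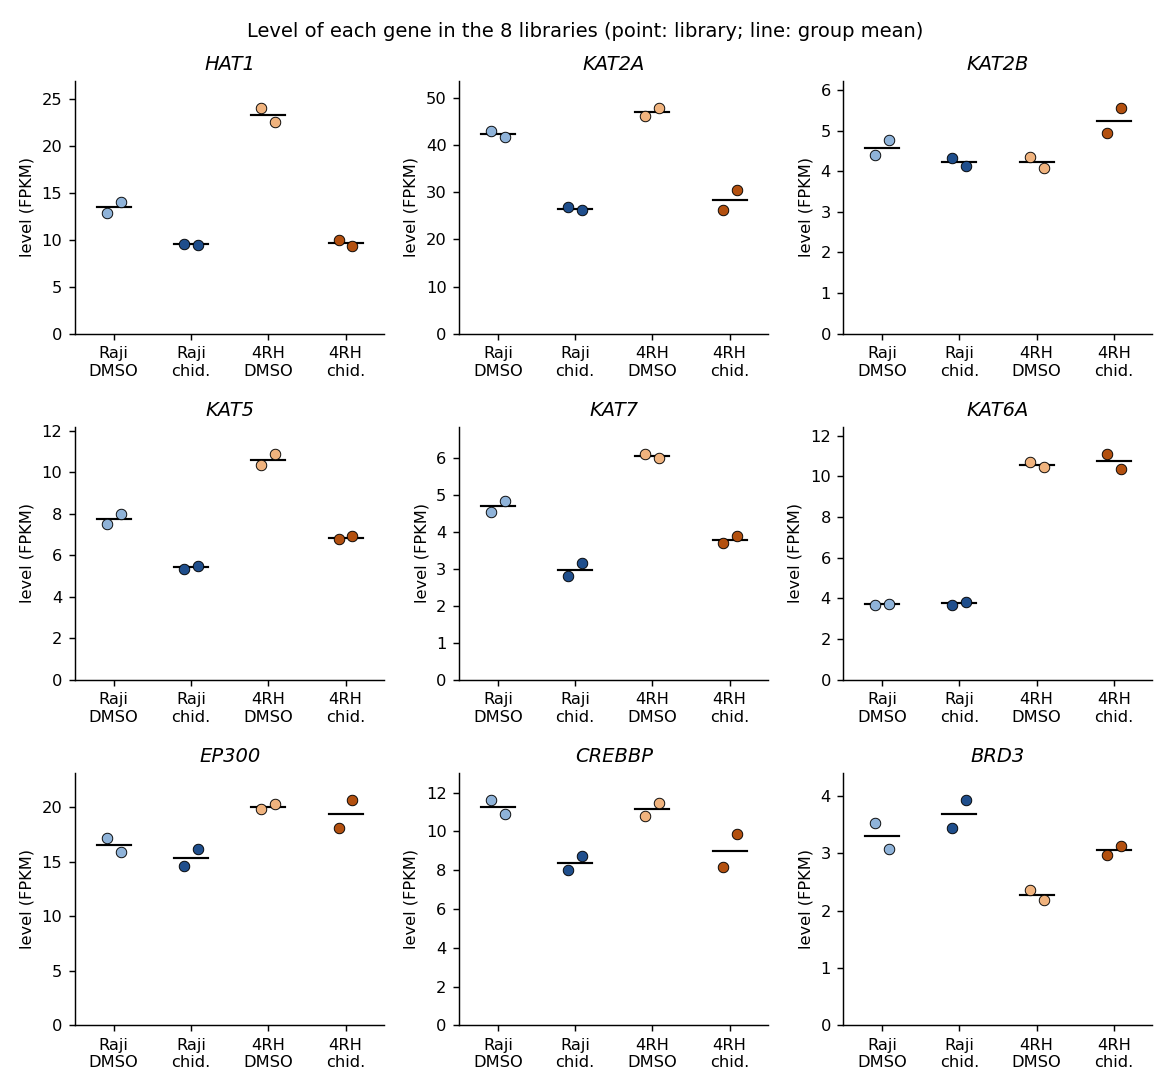
Level of each member in FPKM on the vertical axis, from 0, in the 4 groups on the horizontal axis (4RH, Raji-4RH and chid., chidamide). Each point is a library and each line the mean of the 2 libraries. HAT1 fell to about the same level in both lines, from 13.4 in Raji and 23.2 in Raji-4RH to 9.50 and 9.69 FPKM, while KAT6A differed between the lines and stayed level under chidamide.

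Chidamide lowered 5 of the 9 members in both lines, HAT1, KAT2A, KAT5, KAT7 and CREBBP. KAT2B and BRD3 rose in Raji-4RH, and EP300 and KAT6A did not pass the test in either line. In Raji-4RH this made 2 members higher and 5 lower, beside 43.3% of all tested genes higher and 31.6% lower. In Raji it made 0 higher and 5 lower, beside 31.5% and 28.5% of all genes. With such a share of all genes moving, a count of members says little, and the median over the members is given beside that over all genes. It was -0.28 against 0.09 in Raji-4RH and -0.39 against 0.02 in Raji, on the scale of log2(FPKM + 1), on which all differences below are given and which understates the change of low genes. The groups did not overlap for 7 of 9 members in Raji-4RH and for 6 of 9 in Raji, beside 86.5% and 82.8% of all tested genes. Calls were made by limma at an adjusted p under 0.05, with Benjamini-Hochberg adjustment over all tested genes. An exact permutation test of 2 libraries against 2 cannot go below p = 0.333, and the labels do not say that the 2 libraries of a group came from separate cultures, so the p-values measure the spread between these libraries.

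HAT1 (chr2:171922448-171983682, plus strand, GRCh38) is the enzyme that acetylates H4 in the cytoplasm on its way to new chromatin. Its level was 12.9 and 14.001 FPKM in Raji DMSO, 9.52 and 9.47 in Raji chidamide, 24.0 and 22.5 in Raji-4RH DMSO, and 10.0 and 9.36 in Raji-4RH chidamide. The treated libraries lay under the control libraries in both lines, and the treated libraries of the lines overlapped although their controls were far apart. It fell by 58.3% in Raji-4RH, a log2 difference of -1.18 with a standard error (SE) of 0.06 (n = 2 and 2, limma adjusted p = 7.39e-07), the largest fall among the members. In Raji it fell by 29.3%, with a log2 difference of -0.46 (SE 0.06, limma adjusted p = 3.47e-04).

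KAT2A (chr17:42113108-42121358, minus strand) is the more abundant of the SAGA and ATAC acetyltransferases here. In Raji its level was 43.1 and 41.8 FPKM with DMSO and 26.8 and 26.2 with chidamide, and in Raji-4RH it was 46.2 and 47.8 with DMSO and 26.3 and 30.4 with chidamide. The 4 treated libraries were all below the 4 control libraries. KAT2A fell by 37.6% in Raji (log2 difference -0.66, SE 0.07, limma adjusted p = 8.60e-05) and fell by 39.7% in Raji-4RH (-0.71, SE 0.07, limma adjusted p = 2.49e-05). Of its exon bases, 10.7% overlap exons of AC099811.2 on the same strand, and the part of this overlap in its level was not tested.

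KAT2B (chr3:20040023-20154404, plus strand) is the relative of KAT2A. It measured 4.40 and 4.76 FPKM in Raji DMSO, 4.32 and 4.13 in Raji chidamide, 4.35 and 4.08 in Raji-4RH DMSO, and 4.93 and 5.55 in Raji-4RH chidamide. The treated Raji-4RH libraries were above the other 6 libraries. The rise in Raji-4RH was 24.4%, a log2 difference of 0.26 (SE 0.07, limma adjusted p = 0.00935), and in Raji the log2 difference was -0.09 (limma adjusted p = 0.284). Under quantile normalization the Raji value was -0.20 and was called (limma adjusted p = 0.035). The call in Raji-4RH was lost at a log2 difference of 0.22 without the second DMSO library, at 0.19 without the second chidamide library and at 0.08 under quantile normalization. KAT2A and KAT2B, which can take each other's place in SAGA and ATAC, thus moved in opposite directions in Raji-4RH, where the ratio of their means went from 11.1 to 5.41.

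KAT5 (chr11:65711996-65719604, plus strand) acetylates H4 and H2A and works in DNA repair as well as transcription. Its level was 7.49 and 7.99 FPKM in Raji DMSO, 5.34 and 5.49 in Raji chidamide, 10.3 and 10.9 in Raji-4RH DMSO, and 6.80 and 6.91 in Raji-4RH chidamide. The groups did not overlap in either line. KAT5 fell by 30.01% in Raji (log2 difference -0.45, SE 0.06, limma adjusted p = 2.33e-04) and fell by 35.4% in Raji-4RH (-0.56, SE 0.06, limma adjusted p = 2.94e-05). Of its exon bases, 38.6% overlap exons of RNASEH2C on the opposite strand, and reads of the 2 genes there cannot be told apart without strand, which is not given in the sources used here.

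KAT7 (chr17:49788555-49835030, plus strand) acetylates H3K14 and H4 and is known at replication origins. Its level was 4.53 and 4.85 FPKM in Raji DMSO, 2.80 and 3.15 in Raji chidamide, 6.12 and 6.01 in Raji-4RH DMSO, and 3.70 and 3.88 in Raji-4RH chidamide. Treated libraries were below controls in both lines. The log2 difference was -0.52 in Raji (SE 0.07, limma adjusted p = 2.17e-04) and -0.56 in Raji-4RH (SE 0.07, limma adjusted p = 7.39e-05). KAT7 thus fell by 36.6% and fell by 37.5%. Of its exon bases, 2.68% overlap exons of AC027801.4 on the same strand and 2.51% those of FAM117A on the opposite strand.

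KAT6A (chr8:41929479-42052026, minus strand) shares scaffold subunits with KAT7. With DMSO it stood at 3.69 and 3.71 FPKM for Raji and at 10.7 and 10.5 for Raji-4RH. With chidamide the levels were 3.68 and 3.81 FPKM for Raji and 11.1 and 10.4 for Raji-4RH. Treated and control libraries overlapped in each line. The log2 difference under chidamide was 0.01 in Raji, with a 95% interval from -0.12 to 0.14, and 0.02 in Raji-4RH, with an interval from -0.11 to 0.15.

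CREBBP (chr16:3725054-3880726, minus strand), the paralog of EP300, was called lower under chidamide in each line. Its level was 11.6 and 10.9 FPKM in Raji DMSO, 8.01 and 8.71 in Raji chidamide, 10.8 and 11.5 in Raji-4RH DMSO, and 8.14 and 9.88 in Raji-4RH chidamide. The treated libraries were below the controls in each line, and the 2 treated Raji-4RH libraries were far apart from each other. It fell by 25.7% in Raji (log2 difference -0.39, SE 0.09, limma adjusted p = 0.0051) and fell by 19.1% in Raji-4RH (-0.28, SE 0.09, limma adjusted p = 0.0176). The Raji-4RH call was lost at -0.16 without the first chidamide library, the one with the fewest reads, at -0.24 without the second DMSO library, and when the 4 Raji-4RH libraries were fitted alone.

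EP300 (chr22:41091786-41180079, plus strand) measured 17.2 and 15.95 FPKM in Raji DMSO, 14.6 and 16.2 in Raji chidamide, 19.8 and 20.3 in Raji-4RH DMSO, and 18.1 and 20.7 in Raji-4RH chidamide. Treated and control libraries overlapped in both lines. The log2 difference was -0.10 in Raji, with a 95% interval from -0.28 to 0.08, and -0.05 in Raji-4RH, with an interval from -0.23 to 0.13. The difference between the paralogs was not tested.

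BRD3 (chr9:134030305-134068535, minus strand) was the lowest member in 3 of the 4 groups. Its level was 3.53 and 3.07 FPKM in Raji DMSO, 3.44 and 3.93 in Raji chidamide, 2.37 and 2.18 in Raji-4RH DMSO, and 2.97 and 3.13 in Raji-4RH chidamide. The Raji groups overlapped and the Raji-4RH groups did not. In Raji-4RH it rose by 34.1%, a log2 difference of 0.31 (SE 0.08, limma adjusted p = 0.00687), and in Raji the log2 difference was 0.13 (limma adjusted p = 0.204). Under quantile normalization the Raji-4RH value turned to -0.08 and was not called. Of its exon bases, 18.6% overlap BRD3OS on the opposite strand. BRDT, the BET gene of the testis and not a member, was listed at 0 in 7 libraries and had 7 reads in the second Raji-4RH chidamide library. BRD2 was not analysed here.

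The scale of the libraries mattered for the small changes. Under quantile normalization the median difference of all genes in Raji-4RH moved from 0.09 to -0.02, a shift of 0.11, and the called genes went from 4642 higher and 3380 lower, 57.9% higher, to 3718 higher and 4057 lower, 47.8% higher. Relative to the median of all genes, the Raji-4RH differences were -1.27 for HAT1, -0.81 for KAT2A, -0.66 for KAT5, -0.65 for KAT7 and -0.38 for CREBBP, and 0.17 for KAT2B and 0.21 for BRD3.

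**Figure D2:**
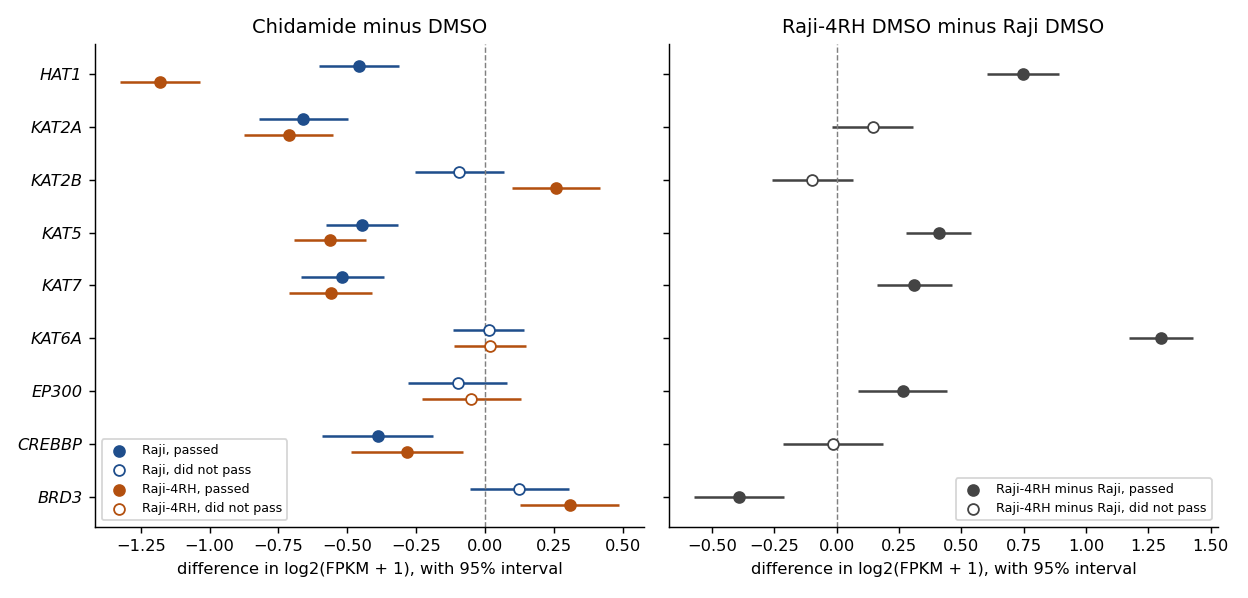
Difference in log2(FPKM + 1) for each member, with its 95% interval, for chidamide minus DMSO in each line (left) and for Raji-4RH DMSO minus Raji DMSO (right). Filled points passed the limma test and open points did not. HAT1, KAT2A, KAT5, KAT7 and CREBBP lie below 0 in both lines on the left, and KAT6A at 1.30 stands far to the right of the others on the right.

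Whether the lines differed in their response was tested as the difference of the chidamide effects, Raji-4RH minus Raji. HAT1 and KAT2B passed, 1 lower and 1 higher, beside 21.7% of all genes lower and 27.2% higher. HAT1 fell further in Raji-4RH, with a difference of effects of -0.72 (SE 0.09, limma adjusted p = 3.52e-04). The KAT2B effects differed by 0.35 (SE 0.10, limma adjusted p = 0.0191). For KAT2A the difference was -0.05, with a 95% interval from -0.28 to 0.18, for KAT5 -0.12 (-0.30 to 0.07), for KAT7 -0.04 (-0.25 to 0.17) and for CREBBP 0.11 (-0.18 to 0.39). None of those 4 passed, nor did BRD3 at 0.18 (-0.07 to 0.44), EP300 at 0.05 or KAT6A at 0.0046. The KAT2B call was lost when the second library of Raji DMSO, of Raji chidamide or of Raji-4RH DMSO was left out, and then 1 member was called.

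Without chidamide, 5 members were higher in Raji-4RH than in Raji, KAT6A, HAT1, KAT5, KAT7 and EP300, and BRD3 was lower. This compares with 41.2% of all genes higher and 32.4% lower, and the member median was 0.26 against 0.06 over all genes. The libraries did not overlap for 8 of the 9, beside 88.5% of all tested genes. KAT6A was 2.86 times higher in Raji-4RH DMSO, at 10.6 against 3.70 FPKM, a log2 difference of 1.30 (SE 0.06, limma adjusted p = 1.71e-07). HAT1 was 1.73 times higher (log2 difference 0.75, SE 0.06, limma adjusted p = 1.01e-05).

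The other baseline differences were smaller. KAT5 was higher by 0.41 on the log2 scale (SE 0.06, limma adjusted p = 2.26e-04), KAT7 by 0.31 (SE 0.07, limma adjusted p = 0.00252) and EP300 by 0.26 (SE 0.08, limma adjusted p = 0.0139). The EP300 call was lost without the second library of either DMSO group, at 0.21 and 0.25. BRD3 was lower in Raji-4RH, with a log2 difference of -0.39 (SE 0.08, limma adjusted p = 0.00196). KAT2A at 0.14 and KAT2B at -0.10 did not overlap between the lines but were not called. Under quantile normalization both were, at 0.18 and -0.18 (limma adjusted p = 0.0314 and 0.0418), which made 8 members called in place of 6, and KAT2A was also called when the 4 DMSO libraries were fitted alone. CREBBP stood at -0.01, with a 95% interval from -0.22 to 0.19. The baseline and the chidamide comparisons share the DMSO libraries, so no relation is drawn from HAT1, KAT5 and KAT7 being higher at baseline and falling under chidamide.

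The genes around KAT6A and HAT1 were looked at after these values had been seen, as a description with no test, since neighbouring genes are not independent. Within 5 Mb on either side of KAT6A, 25 of 34 tested genes were higher in Raji-4RH DMSO than in Raji DMSO and 4 were lower, with a median of 0.86 against 0.06 over all genes. On the side of KAT6A towards the start of chromosome 8, 89 of 106 genes were higher, with a median of 0.95. Up to 5 Mb past KAT6A, 10 of 13 were higher with a median of 0.89, while from 5 to 70 Mb past it 23 of 127 were higher and 75 lower, with a median of -0.26.

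Within 5 Mb of HAT1 on chromosome 2, 28 of 34 genes were higher and 3 lower, with a median of 0.67. Within 2 Mb of HAT1 12 of 15 genes were higher and within 10 Mb 44 of 57, and for KAT6A the counts were 13 of 16 and 28 of 43, beside 41.2% of all genes. The other members lay among genes whose median ran from -0.15 around BRD3 to 0.37 around KAT2B. The rows of the table follow gene identifiers and not position, and 18 of 24 neighbours of KAT6A whose values had been moved were higher, as were 7 of 10 whose values had not. Chidamide left the neighbours of KAT6A at a median of 0.09 in Raji-4RH and 0.01 in Raji, near the medians of all genes. Around HAT1 these medians were -0.10 and -0.13. Among the 9 members they were highest around KAT2B, at 0.24 and 0.26. They were lowest around CREBBP, at -0.29 and -0.19 over 134 genes, where CREBBP itself stood at -0.28 and -0.39. The part of the region in the changes of the members was not tested.

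**Figure D3:**
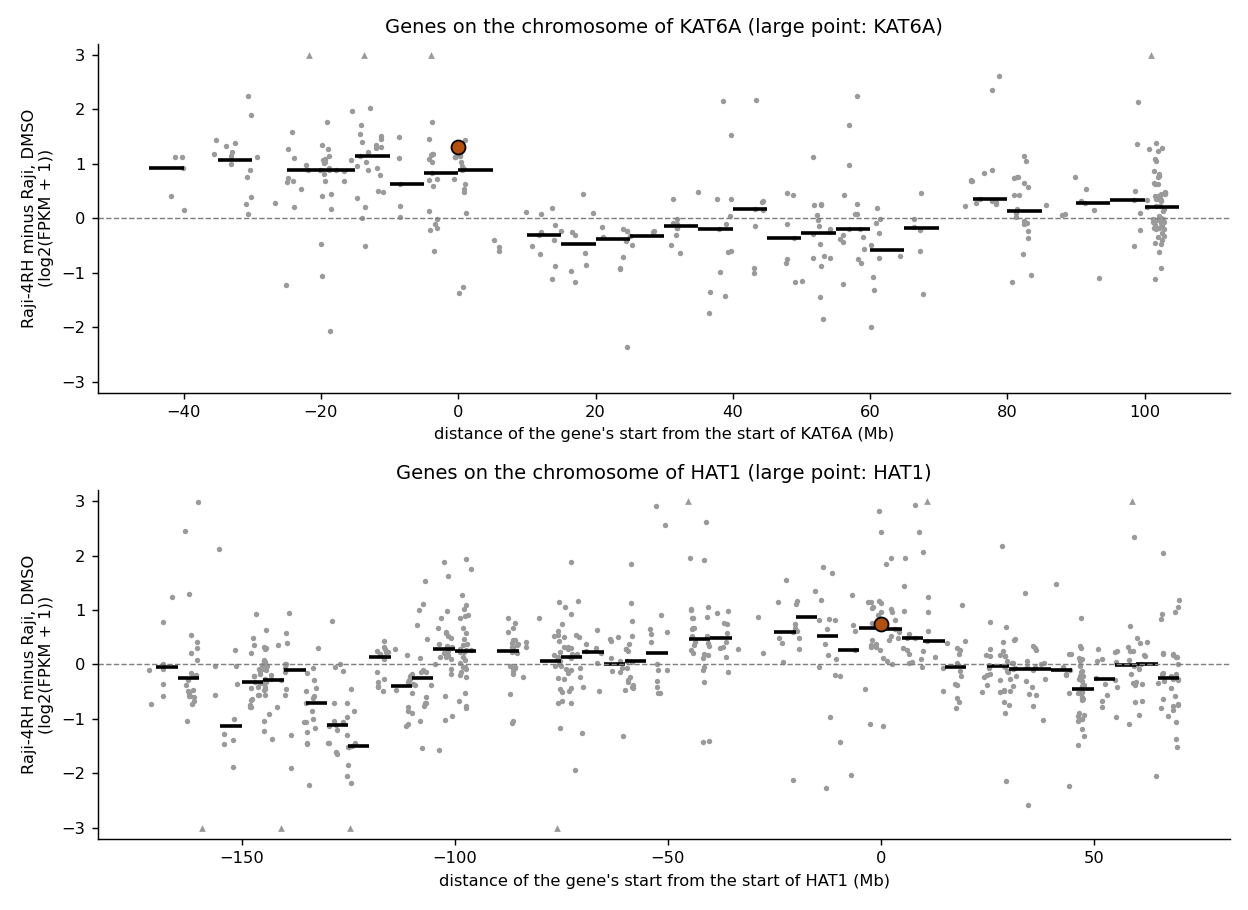
Difference between Raji-4RH DMSO and Raji DMSO in log2(FPKM + 1) for each tested gene (small points) against the distance of its start from that of KAT6A (top) or HAT1 (bottom), in Mb along the chromosome. Black lines are medians over 5 Mb with at least 5 genes, triangles are genes beyond the axis, and the large point is the member. The genes up to and just past KAT6A lie high, at medians of 0.62 to 1.13 where a line is drawn, and those farther along lie around or below 0 up to 70 Mb.

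Genes that work with the members were taken from 11 lists of complexes and pathways, with 138 list genes tested. Under chidamide the partners of HAT1 in the supply of new histones moved with it. Of 7 tested, 6 fell and 0 rose in Raji-4RH, and 6 fell and 0 rose in Raji, with medians of -1.33 and -0.35, beside 31.6% and 28.5% of all genes lower. The exceptions were ASF1A in Raji-4RH at -0.08 and RBBP7 in Raji at -0.08, named after their values were seen. Without chidamide, where HAT1 was higher in Raji-4RH than in Raji, 3 of the 7 partners were higher and 2 lower. Their median was -0.01, and 41.2% of all genes were higher and 32.4% lower.

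CHAF1A, the large subunit of the chromatin assembly factor CAF-1, went from 36.6 and 37.4 FPKM in Raji-4RH DMSO to 7.80 and 8.16 under chidamide, a log2 difference of -2.08 (SE 0.07, limma adjusted p = 6.65e-08). In Raji it went from 40.5 and 37.2 FPKM to 25.1 and 27.7, a log2 difference of -0.54. The histone chaperone ASF1B had log2 differences of -1.53 in Raji-4RH and -0.35 in Raji, and NASP, a carrier of free H3 and H4, of -1.33 and -0.22, all called. The NASP call in Raji was lost at -0.10 under quantile normalization (limma adjusted p = 0.17), at -0.17 without the second DMSO library, and without either chidamide library, at -0.22 and -0.21. The difference between the lines passed for 6 of the 7, all in the direction of a larger fall in Raji-4RH, as for HAT1. The median difference of effects over the 7 was -0.94. Of all tested genes, 21.7% were called lower and 27.2% higher for this difference. CHAF1A and ASF1B serve DNA replication and are known to be highest in S phase. The part of the cell cycle in these differences was not tested.

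For the subunits around the members the counts stand beside 31.6% of all genes lower and 43.3% higher in Raji-4RH and 28.5% lower and 31.5% higher in Raji. In the NuA4/TIP60 list of 18, 11 fell and 4 rose in Raji-4RH and 12 fell and 1 rose in Raji, with medians of -0.21 and -0.25. In it YEATS4, a reader of acetylated and crotonylated H3, went from 32.5 and 31.3 FPKM to 12.3 and 14.4 in Raji-4RH and from 19.4 and 21.5 to 11.6 and 11.3 in Raji, log2 differences of -1.20 and -0.78. Of 9 scaffold subunits of KAT6A and KAT7 complexes, 7 fell and 2 rose in Raji-4RH and 6 fell and 2 rose in Raji, with medians of -0.64 and -0.44. Of 24 SAGA and ATAC subunits, 13 fell and 5 rose in Raji-4RH, and 10 fell and 3 rose in Raji, with medians of -0.17 and -0.09. For 11 MSL and NSL subunits, the partners of KAT8, the counts were 6 lower and 3 higher in Raji-4RH and 7 lower and 1 higher in Raji.

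The genes listed as other acetyltransferases, not all of them specific to lysine, did not share a direction. Of 17, 7 rose and 6 fell in Raji-4RH and 2 rose and 3 fell in Raji, with medians of 0.01 and -0.06. Among all tested genes, 43.3% rose and 31.6% fell in Raji-4RH, and 31.5% rose and 28.5% fell in Raji. ELP3, the catalytic subunit of Elongator, was the list gene with the largest excess in Raji-4RH at baseline, 16.1 and 15.7 FPKM against 5.26 and 5.59 in Raji DMSO (log2 difference 1.39, SE 0.06, limma adjusted p = 1.06e-07). It lies 13.96 Mb from KAT6A, within the stretch of chromosome 8 described above, as does NSD3, a histone methyltransferase, 3.67 Mb from KAT6A, at 11.7 and 11.4 FPKM against 4.39 and 4.72 (log2 difference 1.17). Of 9 p300/CBP partners 5 were higher and 1 lower in each line, with medians of 0.25 in Raji-4RH and 0.23 in Raji. Beside them, 43.3% of all genes were higher and 31.6% lower in Raji-4RH, and 31.5% and 28.5% in Raji. CITED2, which competes for a domain of p300 and CBP, rose by 1.19 on the log2 scale in Raji-4RH, from 8.12 and 9.25 FPKM to 19.0 and 23.2, and stood at 0.24, not called, in Raji, where it was already at 29.9 and 27.1 FPKM with DMSO. It was called in Raji under quantile normalization at 0.33 (limma adjusted p = 0.0217), by voom on the recovered reads at 0.25 (limma adjusted p = 0.0327) and when the 4 Raji libraries were fitted alone.

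Among the 15 elongation factors that BET readers work with, 7 rose and 5 fell in Raji-4RH and 5 rose and 4 fell in Raji. Beside them, 43.3% of all tested genes rose and 31.6% fell in Raji-4RH, and 31.5% rose and 28.5% fell in Raji. HEXIM1, the inhibitor of the elongation kinase P-TEFb, rose from 8.71 and 8.36 FPKM to 21.6 and 22.8 in Raji, a log2 difference of 1.28 (SE 0.12, limma adjusted p = 4.19e-05). In Raji-4RH it rose from 9.61 and 10.6 to 55.3 and 41.2 FPKM, a log2 difference of 2.13 (SE 0.12, limma adjusted p = 9.16e-07). AFF1, a scaffold of the super elongation complex, rose in both lines, from 1.58 and 1.74 to 7.87 and 7.97 FPKM in Raji and from 2.00 and 2.15 to 8.16 and 8.62 in Raji-4RH. MEPCE, which caps the 7SK RNA that holds P-TEFb inactive, fell in both lines, with log2 differences of -0.91 in Raji and -0.67 in Raji-4RH, as did the elongation factor ELL3 with -1.04 and -0.84.

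Of 37 other bromodomain and YEATS readers, 20 fell in each line, while 12 rose in Raji-4RH and 9 in Raji, with medians of -0.21 and -0.18. Beside them, 31.6% of all tested genes fell and 43.3% rose in Raji-4RH, and 28.5% fell and 31.5% rose in Raji. ATAD2, a bromodomain ATPase, fell in Raji-4RH from 23.6 and 21.5 FPKM to 6.66 and 7.14, a log2 difference of -1.57, and in Raji with -0.63. SP140, a reader of immune cells, rose from 3.19 and 3.91 to 18.9 and 19.8 FPKM in Raji (log2 difference 2.16) and from 1.10 and 1.18 to 4.57 and 4.97 in Raji-4RH (1.43). BPTF, the reader subunit of the NURF remodeller, fell in Raji (log2 difference -0.44) and rose in Raji-4RH (0.27). BAZ1B was 58.2 and 56.4 FPKM in Raji-4RH DMSO against 22.6 and 22.5 in Raji DMSO, and MRFAP1, a binding partner of a NuA4 subunit, was 56.9 and 59.3 against 131 and 136. Of 3 genes of acetyl-CoA supply tested, 1 rose and 1 fell in Raji-4RH, and 1 rose and 0 fell in Raji.

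**Figure D4:**
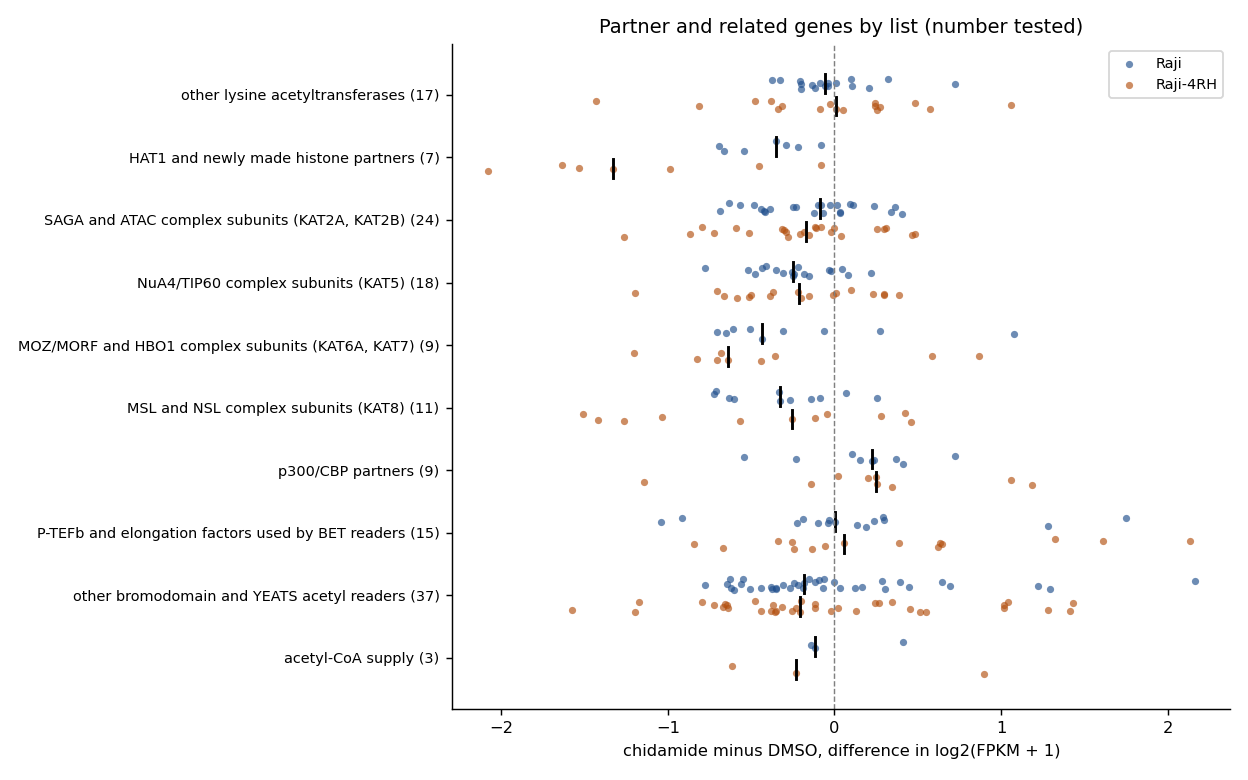
Chidamide minus DMSO in log2(FPKM + 1) for each tested gene (points) of the lists, in Raji (blue) and Raji-4RH (brown), with the list median as a black bar and the number tested in brackets. The HAT1 partners have the lowest medians in Raji-4RH at -1.33, and the p300/CBP partners the highest at 0.25.

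Over the 8 libraries the pattern of KAT5 was closest, among the members, to that of KAT7, with a Pearson r of 0.986 on the log2 scale, followed by CREBBP with KAT2A at 0.941 and KAT5 with HAT1 at 0.940. These 8 points are 4 groups of 2, so each r is a description of group means. The gene with the pattern most like HAT1 was CUTC at 0.996, for KAT2A it was PAIP1 at 0.994, for KAT5 MPHOSPH10 at 0.995, for KAT7 GLE1 at 0.993, for KAT6A RERG at 0.999 and for BRD3 ZNF526 at 0.993. For CREBBP it was MAPK12 at 0.980, for EP300 SOX12 at 0.969 and for KAT2B SRD5A3 at 0.959. Such values are common in these data. Over all tested genes, a correlation above 0.95 was shared by 988 genes with KAT6A and by 236 with HAT1, but by 1 gene with KAT2B.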

How the data were processed

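RNA-seq libraries of Raji and Raji-4RH cells were made with the NEBNext Ultra kit from 3 µg of total RNA. Per the labels, the submitters' processing notes name HISAT2 2.0.5, SAMtools 1.7, HTSeq 0.9.1, DESeq2 1.22.2 and the build GRCh38, with no role or strand setting given. The authors deposited 1 table of FPKM per gene for the 8 libraries. Values lie up to 14 rows below their labels, and each was moved to its label and multiplied by the ratio of the 2 gene lengths. This placed 18143 genes and 90.7% to 93.2% of the reads per library, and 662 repeated rows were left out. Reads recovered from the FPKM steps came out whole for 100.0% of values (within 0.01 read). Groups followed the labels. Genes that reached 1 FPKM in 2 or more libraries entered limma 3.58.1 (R 4.3.3, trended prior, all 8 libraries, 1 mean per group) on log2(FPKM + 1), since a count model does not suit FPKM. Each of 4 contrasts took a threshold of 0.05 on p-values adjusted by Benjamini and Hochberg's method over all tested genes. The fit was checked on simulated data with known changes. The alternatives were another pseudocount, 2 other scalings, 2 other filters, no trend, a replicate block, voom on the recovered reads, rows as deposited, separate fits and leaving out each library. List genes were named by rule: in each contrast the 3 largest called rises and falls among genes averaging 5 FPKM or more whose groups do not overlap, and for likeness 2 genes a member. Of the list genes, 1 is not reported here. The members and lists were chosen with earlier results of these data known. Coordinates of genes are from GENCODE 29, promoter windows from RefSeq (GRCh38.p14).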

Additional observations from a re-analysis of the deposited data

Results flagged for a closer look

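The chidamide effect differed between Raji-4RH and Raji, by a test of the difference itself in the same limma fit, for 2 members and 12 list genes named here. Among the members the difference on the log2 scale (Raji-4RH minus Raji) was -0.72 for HAT1 and 0.35 for KAT2B. Among the histone chaperones and readers that fell further in Raji-4RH it was -1.54 for CHAF1A, -1.18 for ASF1B, -1.11 for NASP, -0.95 for ATAD2, -0.55 for BAZ1B and -0.42 for YEATS4. The YEATS4 call was lost without the first Raji DMSO, Raji chidamide or Raji-4RH DMSO library, at -0.35, -0.40 and -0.39. SP140 had -0.73, which became -0.39 and was not called by voom on the recovered reads (limma adjusted p = 0.0914). HEXIM1 rose further in Raji-4RH, with 0.85. CITED2 at 0.95 and MRFAP1 at 0.30 rose in Raji-4RH and were not called in Raji, although under quantile normalization both were called there, and BPTF at 0.71 fell in Raji and rose in Raji-4RH. MEPCE had 0.24. The call of the difference was lost for MEPCE in 7 of 16 alternatives on the placed rows, with median-centred libraries (limma adjusted p = 0.0567), with a replicate block (0.0524) and without 1 of 5 libraries (up to 0.108). For MRFAP1 it was lost in 9 of 16, with median-centred libraries (limma adjusted p = 0.0835), with no filter, with a replicate block (both 0.0556) and without 1 of 6 libraries (up to 0.125). Of all tested genes, 2910 had a higher and 2321 a lower effect in Raji-4RH. These values share the DMSO libraries with the comparison of the lines at baseline, and the first Raji-4RH chidamide library had the fewest reads, 13991697. Without it 5662 genes were called for the difference of effects in place of 5231, and HAT1 and KAT2B were still called.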

How the results depend on the processing

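Over the alternatives, 485 recomputed member values kept their direction and call, 12 lost and 5 gained a call and 25 changed direction, and the count of all called genes stayed within 1.5 times the reported one in 60 of 60. With rows as deposited, which gives KAT5, KAT7, BRD3 and other moved genes the values of other rows, KAT5 read 0.39 in Raji-4RH, 0.42 as the difference of effects and -1.66 at baseline, MEPCE 0.80 in Raji-4RH and 0.43 in Raji, ELP3 -2.11 and NASP -0.12 at baseline, and MRFAP1 -0.60 as the difference of effects, for which 4 members were then called. Under quantile normalization in Raji-4RH EP300 read 0.13 and BRD3 -0.081, in Raji KAT6A -0.13 and BRD3 -0.032, and as the difference of effects KAT2A 0.055, BRD3 -0.049 and ELL3 -0.047. With median-centred libraries KAT6A read -0.058 in Raji-4RH, -0.028 in Raji and -0.031 as the difference of effects, and ELP3 -0.070 in Raji-4RH.

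Leaving out each library in turn, values that changed sign ranged in Raji-4RH from -0.14 to 0.043 for EP300, -0.028 to 0.064 for KAT6A and -0.013 to 0.026 for ELP3, and in Raji from -0.0056 to 0.033 for KAT6A and -0.073 to 0.012 for NSD3. For the difference of effects they ranged from -0.041 to 0.14 for EP300, -0.019 to 0.23 for CREBBP, -0.16 to 0.049 for KAT2A, -0.041 to 0.050 for KAT6A and -0.11 to 0.024 for KAT7, and at baseline from -0.058 to 0.029 for CREBBP. The members called for the difference of effects ranged from 1 to 2, with 1 left without the second Raji DMSO, Raji chidamide or Raji-4RH DMSO library. The falls of HAT1, KAT2A, KAT5 and KAT7 in both lines and the baseline excess of KAT6A and HAT1 were called under every alternative that kept the placed rows.

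The replicate numbers did not pair the libraries, with correlations of deviations from the group means between -0.279 and 0.166. With a replicate block the called genes were 7886 in Raji-4RH, 6183 in Raji, 4915 for the difference of effects and 7748 at baseline, and no member's call changed. Crossed numbers at baseline, an alternative chosen after seeing the data, gave 8037. BRD3 had the fewest reads of the members, 286 to 563 per library, which limits its precision.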
